A study of Mus musculus with 6 samples.

Results

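The protamine and transition protein genes Prm1, Prm2, Prm3, Tnp1 and Tnp2 are 5 of the 22770 gene rows for which ribosome footprint density was measured in mouse round spermatids. They were taken by gene symbol. Footprints are RNA fragments protected from nuclease by the ribosomes on them, here from 3 samples of wild-type mice and 3 of mice with the genotype Eif5a SKO. EIF5A is a translation factor that helps ribosomes through slow stretches of coding sequence. Neither the meaning of SKO, a Cre driver, the animals' age nor their strain is given in the sources used here. The series' design text, written for an accessibility assay, gives 3 mice per group with round spermatids obtained by sorting. Whether each footprint library is 1 of these mice is not stated.

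During spermiogenesis the histones of the haploid nucleus are removed, transition proteins take their place, and protamines then replace the transition proteins. Protamines are small arginine-rich proteins that pack DNA into the dense sperm head. Their mRNAs and those of the transition proteins are made in round spermatids, held in ribonucleoprotein particles, and translated mainly after the cells begin to elongate. Round spermatids are thus a stage at which these mRNAs are known for being stored. A footprint density reflects the amount of an mRNA as well as its translation, and mRNA levels are not analysed here.

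Prm1, Prm2, Prm3 and Tnp2 lie on the same strand within 8889 bases of chromosome 16 (GRCm38, 10787935 to 10796823), with no other coding gene between them in the RefSeq table. Prm1 (gene identifier 19118) spans 10796332 to 10796823, Prm2 (19119) spans 10791377 to 10792105, Prm3 (19120) spans 10790508 to 10790914 and Tnp2 (21959) spans 10787935 to 10788655. Tnp1 (21958) lies alone on chromosome 1, from 73015074 to 73015899. The 120 bases before each annotated start are shown as a description. Any part of these sequences in the footprint values was not tested. Capitals mark 2 kinds of short motif that were searched for: TGANNTCA on both strands, a relaxed form of the cAMP response element that factors such as CREM bind, and TATAA or TATAT on the sense strand, which can overlap each other.
Prm1, chr16:10796824-10796943, minus strand: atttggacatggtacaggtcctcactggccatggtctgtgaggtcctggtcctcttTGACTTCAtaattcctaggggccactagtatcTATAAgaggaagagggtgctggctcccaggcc
Prm2, chr16:10792106-10792225, minus strand: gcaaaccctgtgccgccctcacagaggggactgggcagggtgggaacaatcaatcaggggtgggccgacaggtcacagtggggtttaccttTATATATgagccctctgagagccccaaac
Prm3, chr16:10790915-10791034, minus strand: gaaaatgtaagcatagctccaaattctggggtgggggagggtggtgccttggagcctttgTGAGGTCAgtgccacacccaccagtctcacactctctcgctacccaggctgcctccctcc
Tnp1, chr1:73015900-73016019, minus strand: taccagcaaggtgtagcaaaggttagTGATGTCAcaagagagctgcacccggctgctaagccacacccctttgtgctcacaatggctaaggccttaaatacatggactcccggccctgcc
Tnp2, chr16:10788656-10788775, minus strand: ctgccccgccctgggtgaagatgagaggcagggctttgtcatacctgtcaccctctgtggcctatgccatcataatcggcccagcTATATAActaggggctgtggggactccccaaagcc
The CRE-like letters were found before 3 of the 5 genes, beginning 64 bases before the start of Prm1 (TGACTTCA), 60 before Prm3 (TGAGGTCA) and 94 before Tnp1 (TGATGTCA). Of 32851 RefSeq promoters 7.14% hold them in the same window. TATA letters were found before Prm1, Prm2 and Tnp2, between 27 and 35 bases from the start, against 12.8% of all promoters. Prm3 and Tnp1 have no TATA match in this window.

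The libraries differed in scale as well as in genotype. Their absolute depth is unknown, and relative depths read from the spacing of low values ran from 0.639 to 1.28, with wild-type replicate 1 set to 1. The TMM-type factors, which estimate how far a typical row of one library sits above another, ran from 0.812 in wild-type replicate 1 to 1.31 in SKO replicate 2. Over all 15578 tested rows the log2 fold change had a median of 0.13 as deposited and 0.0028 after this scaling, so members are also given relative to it. The fit with the deposited values called 17 rows higher and 3 lower in SKO, 0.128% of all tested rows (limma, adjusted p under 0.05). With TMM-type scaling 119 were called higher and 40 lower, 1.02% of rows, but only 4 to 28 rows were called once any 1 library was left out. Quantile normalization called 2.86% of rows and equal sums over protein-coding rows 3.38%. Eif5a itself fell, from 34.2, 48.8 and 61.9 FPKM in wild type to 1.84, 1.93 and 2.99 FPKM in SKO.

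The label of round spermatids was checked against marker genes. Of 8 round spermatid markers all 8 were tested and 0 passed (limma, 2 at an unadjusted p under 0.05). Among all rows 0.128% passed and 11.0% were at that unadjusted p. Their median log2 fold change was 0.56, against 0.13 for all rows, and 6 of 8 lay above the all-row median. Spaca1, Izumo1 and Tssk1 were higher in every SKO library, and the groups of the others overlapped. The summed density of the 8 markers was 558 to 993 FPKM in the wild-type and 765 to 1590 FPKM in the SKO libraries. Acrv1, an acrosomal protein gene, was the densest of them, at 403 ± 128 and 628 ± 236 FPKM (SD, n = 3 per group). The 8 spermatocyte markers summed to 69.0 to 118 and 78.2 to 123 FPKM. This sum also joins opposite differences. With TMM-type scaling Sycp2 was lower in every SKO library (log2 fold change -0.67, limma adjusted p = 0.186). Sycp3 was then higher in every one (0.63, limma adjusted p = 0.272). Groups did not overlap after this scaling in 21.5% of all rows. The 3 analysed spermatogonial markers summed to 10.7 to 12.1 and 12.9 to 18.0 FPKM. Summed markers of Leydig and Sertoli cells were higher in every SKO library. The 7 Leydig cell markers summed to 13.6 to 18.6 FPKM in wild type and 61.2 to 118 FPKM in SKO, and the Sertoli cell markers Clu and Ctsl, the only 2 of 8 listed that were analysed, to 7.36 to 16.5 and 46.1 to 67.2 FPKM. The 8 analysed markers of peritubular, blood and immune cells summed to 33.9 to 66.2 and 43.0 to 56.5 FPKM, a sum that joins opposite differences. Acta2, Myh11, Cnn1 and Dcn, genes of contractile and matrix-forming cells, were higher in every SKO library, while the haemoglobin genes Hbb-bs and Hba-a1 were lower in every one. For Acta2 the values were 2.91, 1.90 and 3.98 FPKM against 17.6, 21.5 and 12.5 FPKM. Hbb-bs had 17.1, 35.7 and 29.8 FPKM against 5.86, 6.19 and 16.1 FPKM (limma adjusted p = 0.294), and Hba-a1 had 10.0, 22.9 and 15.4 FPKM against 3.27, 7.59 and 7.27 FPKM (limma adjusted p = 0.325). Of all rows 15.7% had groups without overlap. In the test Dcn rose with the deposited values, and Dcn, Acta2 and Clu rose with TMM-type scaling (limma), calls that were lost with any 1 library left out. No analysed marker was at 0 in every library. The part of these other cells in the values below was not tested, and in bulk samples fewer cells of a type and less RNA per cell cannot be told apart.

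Of the 5 genes 0 passed the test, either with the deposited values, where 0.128% of all rows did, or with TMM-type scaling, where 1.02% did. The fit left wide intervals for each of them. The largest difference in means among the 5 was that of Prm3, 1.96 times wild type as deposited. After TMM-type scaling its means were 31.8 in wild type and 55.4 in SKO. As deposited, the means of Prm1, Prm2 and Tnp1 were 0.75, 0.704 and 0.720 of wild type. That of Tnp2 was 1.13 times wild type. Within single libraries, Prm3 was denser relative to Prm2 and to Tnp1 in all SKO than in all wild-type samples, while its ratios to Prm1 and Tnp2 overlapped. Of all pairs of coding rows 20.4% separate in this way.

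**Figure D1:**
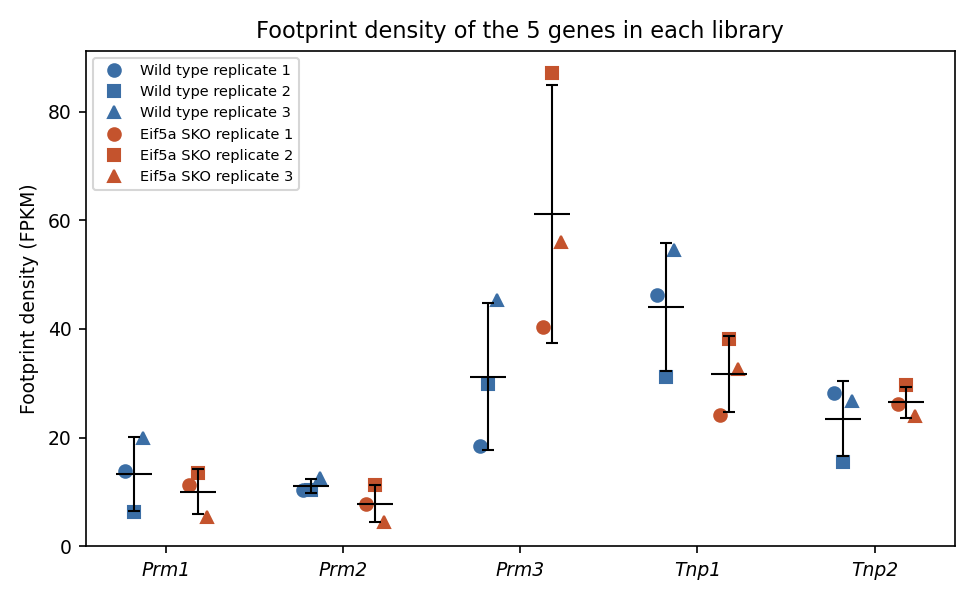
Footprint density in FPKM (vertical axis, linear) of the 5 genes in each library, with black bars for the group mean and its SD (n = 3). The groups overlap for every gene, and SKO replicate 2 is the highest library for Prm3 at 87.1 FPKM.

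The protamines that condense DNA had the lowest densities of the 5 genes. FPKM is scaled to transcript length, so the order between genes also depends on the lengths used, which are not given. Prm1, whose product is the protamine common to mammals, had 13.9, 6.21 and 19.9 FPKM in wild-type replicates 1, 2 and 3 and 11.2, 13.4 and 5.43 FPKM in SKO replicates 1, 2 and 3. The highest library was wild type and the lowest SKO, and the other 4 were interleaved. The group means were 13.3 ± 6.88 and 10.0 ± 4.12 FPKM (SD, n = 3). The log2 fold change was -0.33 (SE 0.49, limma adjusted p = 0.859), or -0.46 relative to all rows. Its 95% interval, from limma's moderated SE, ran from 0.369-fold to 1.71-fold. Without wild-type replicate 3 or without SKO replicate 3 the log2 fold change was 0.01 or 0.02 with the deposited values and -0.28 or -0.14 with TMM-type scaling. Relative to the median of all rows Prm1 was lower in all 22 alternative settings.

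Prm2 encodes a protamine that is made as a longer precursor and trimmed after it binds DNA. It had 10.3, 10.4 and 12.6 FPKM in the wild-type libraries against 7.76, 11.3 and 4.38 FPKM in the SKO libraries. The wild-type values were close together, and of the SKO values only replicate 2 lay within their range. Means were 11.1 ± 1.33 and 7.81 ± 3.45 FPKM. The log2 fold change was -0.53 (SE 0.39, limma adjusted p = 0.661), with an interval from 0.375-fold to 1.28-fold. After TMM-type scaling the values were 12.7, 11.2 and 11.3 in wild type against 9.15, 8.62 and 4.07 in SKO. Scaling removed the overlap, and the scaled log2 fold change was -0.68 (SE 0.31, limma adjusted p = 0.351).

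Prm3 sits between Prm2 and Tnp2, but its product is acidic, unlike the basic protamines, and is found in the cytoplasm. It had 18.4, 29.8 and 45.3 FPKM in the wild-type libraries against 40.3, 87.1 and 56.1 FPKM in the SKO libraries. Only wild-type replicate 3 and SKO replicate 1 crossed. Means were 31.2 ± 13.5 and 61.2 ± 23.8 FPKM, a log2 fold change of 0.97 (SE 0.47), or 0.84 relative to all rows. This did not pass (limma adjusted p = 0.486), and the interval ran from 0.95-fold to 4.05-fold. After TMM-type scaling the values were 22.6, 32.2 and 40.7 against 47.6, 66.5 and 52.2, with no overlap. The scaled log2 fold change was 0.81 (SE 0.27, limma adjusted p = 0.207), with an interval from 1.13-fold to 2.69-fold that is not adjusted for the number of rows. Over 22 alternative settings its adjusted p ran from 0.0781 to 0.760, and Prm3 lay above the all-row median in all 22.

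Tnp1 encodes the smaller and more abundant of the major transition proteins. It was the densest of the 5 in wild type, at 46.3, 31.2 and 54.5 FPKM, and had 24.2, 38.1 and 32.7 FPKM in SKO. Wild-type replicate 2 fell inside the SKO range. Means were 44.0 ± 11.8 and 31.7 ± 7.05 FPKM (log2 fold change -0.45, SE 0.39, limma adjusted p = 0.711, interval 0.397-fold to 1.35-fold). After TMM-type scaling the SKO values were nearly equal, at 28.5, 29.1 and 30.4, and all lay below the wild-type values of 57.0, 33.6 and 49.0. The scaled log2 fold change was -0.62 (SE 0.24, limma adjusted p = 0.278), with an interval from 0.443-fold to 0.963-fold. That interval is likewise not adjusted for the number of rows.

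Tnp2, the transition protein gene at the far end of the cluster, had 28.2, 15.5 and 26.8 FPKM in the wild-type libraries against 26.1, 29.6 and 23.9 FPKM in the SKO libraries. Apart from the low wild-type replicate 2, the groups covered the same range. Means were 23.5 ± 6.97 and 26.5 ± 2.85 FPKM (log2 fold change 0.21, SE 0.38, limma adjusted p = 0.890). Its interval of 0.639-fold to 2.09-fold leaves room for a change in either direction. Its sign was not stable: the log2 fold change was -0.05 without wild-type replicate 2, -0.04 with quantile normalization and -0.02 with equal sums over protein-coding rows.

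As deposited, 0 of the 5 genes had groups without overlap, against 15.7% of all tested rows. With TMM-type scaling 3 of the 5 had groups without overlap, against 21.5% of all tested rows. Prm2 and Tnp1 were lower in every SKO library, as were 9.85% of rows, and Prm3 was higher, as were 11.6%. At an unadjusted p under 0.05 in the limma fit 0 of the 5 genes passed with the deposited values, against 11.0% of all rows. With TMM-type scaling Prm3 and Tnp1 were under that value, against 15.6% of all rows.

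The order of the genes by mean density per length differed between the genotypes. In wild type the order of means was Tnp1, Prm3, Tnp2, Prm1 and Prm2. Tnp1 was above Prm3 in 3 of 3 wild-type libraries and Tnp2 above Prm1 in 3 of 3. Prm3 was above Tnp2 in 2 of 3 and Prm1 above Prm2 in 2 of 3, so these neighbours did not separate. In SKO, Prm3 came first and was above Tnp1 in 3 of 3 libraries. Tnp1 was above Tnp2 in 2 of 3, Tnp2 above Prm1 in 3 of 3 and Prm1 above Prm2 in 3 of 3. Prm3 made up 15.7%, 32.0% and 28.4% of the summed density of the 5 genes in wild type and 36.8%, 48.5% and 45.8% in SKO. This share is another form of the Prm3 values given above. Of all ratios between pairs of tested protein-coding rows, 20.4% had groups without overlap. No such figure was computed for a share of a sum of 5 genes. The 5 genes together held 0.0563% to 0.0906% of the summed density of all protein-coding rows, with overlapping groups.

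Ranks within a library do not depend on its scale. Among 11159 tested protein-coding rows Tnp1 stood at the 95.7, 90.8 and 93.0 percentile in wild type against 90.2, 88.2 and 89.6 in SKO. Prm3 stood at 87.7, 90.3 and 91.5 in wild type against 94.4, 94.9 and 94.0 in SKO. Both pairs of groups were apart, in opposite directions. Prm2 stood at 79.2, 75.0 and 74.3 against 71.0, 69.6 and 50.1, which were also apart, with SKO replicate 3 at the middle of its library. Of all these coding rows 12.4% ranked higher in every SKO than in every wild-type library and 11.9% lower. Prm1, from 63.7 to 84.3 in wild type and from 56.4 to 78.9 in SKO, and Tnp2, from 82.2 to 92.4 and from 85.5 to 91.1, overlapped. All 5 genes thus ranked at or above the middle of their library in all 6 samples, though the DNA-packing protamines stood lower than the transition proteins in group means.

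**Figure D2:**
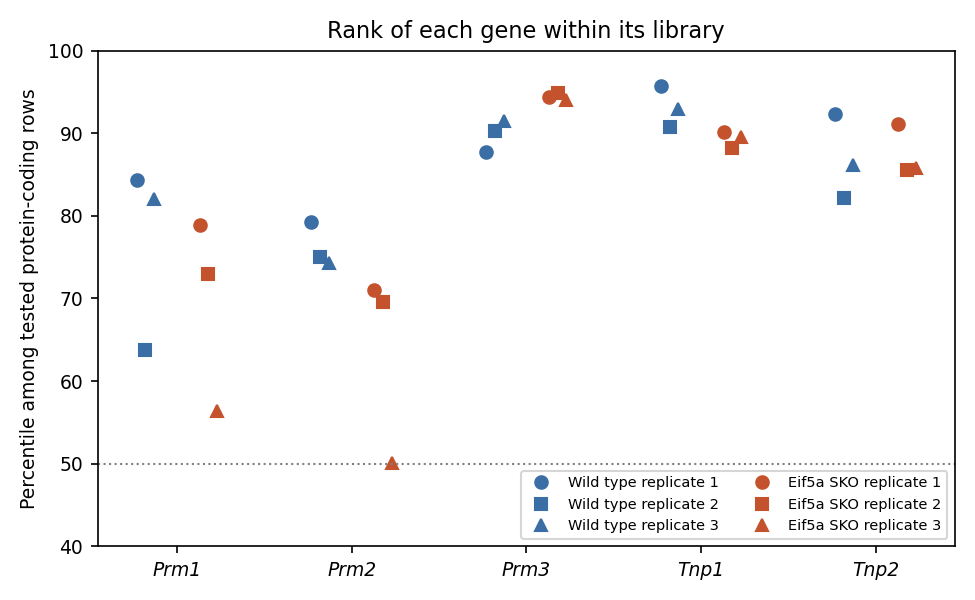
Percentile of each gene among 11159 tested protein-coding rows of the same library (vertical axis), with the median marked by a dotted line. The SKO samples lie above wild type for Prm3 and below it for Prm2 and Tnp1.

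The ratio of one gene to another within a library is likewise free of scale, apart from the added pseudocount. Of the 10 pairs among the 5 genes, 3 had groups that did not overlap, a share to be read against the 20.4% of all pairs of tested protein-coding rows. Prm3 to Prm2 was 1.79, 2.88 and 3.59 in the wild-type libraries against 5.20, 7.72 and 12.8 in the SKO libraries. On the log2(FPKM + 1) scale this ratio differed by 1.5, a 2.83-fold difference, from 1.33 ± 0.501 to 2.83 ± 0.585 (SD, n = 3; two-sided exact permutation p = 0.1, the smallest that 20 assignments allow). Prm2 and Prm3 lie next to each other in the cluster.

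Prm3 to Tnp1, a pair picked out after its values were seen, was 0.397, 0.957 and 0.830 in the wild-type libraries against 1.67, 2.28 and 1.71 in the SKO libraries. Thus Tnp1 was the denser gene in each wild-type library and Prm3 in each SKO library. Tnp2 to Tnp1 was 0.610, 0.497 and 0.492 in the wild-type libraries against 1.08, 0.776 and 0.731 in the SKO libraries, a log2 difference of 0.66 (two-sided exact permutation p = 0.1). The 2 transition protein genes were therefore nearer to each other in density in SKO than in wild type.

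The pair of DNA-packing protamines showed no such separation. Prm2 to Prm1 was 0.739, 1.67 and 0.633 in the wild-type libraries against 0.694, 0.840 and 0.806 in the SKO libraries. Wild-type replicate 2, in which Prm1 was low, stood apart from the other 5 libraries. The log2 difference was -0.20 (two-sided exact permutation p = 0.9), and 0.19 without that library. Tnp1 to Prm1 had a log2 difference of -0.12 (exact permutation p = 0.9), which was 0.09 without wild-type replicate 2 and 0.17 without SKO replicate 1. Prm3 to Prm1 had a log2 difference of 1.30, with wild-type replicate 2 above SKO replicate 1 (exact permutation p = 0.2). Prm3 to Tnp2 was 0.651, 1.92 and 1.69 in the wild-type libraries against 1.54, 2.94 and 2.35 in the SKO libraries, so SKO replicate 1 lay below 2 of the 3 wild-type libraries. The remaining pairs also overlapped, with log2 differences of -0.54 for Prm1 to Tnp2, -0.08 for Prm2 to Tnp1 and -0.74 for Prm2 to Tnp2.

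**Figure D3:**
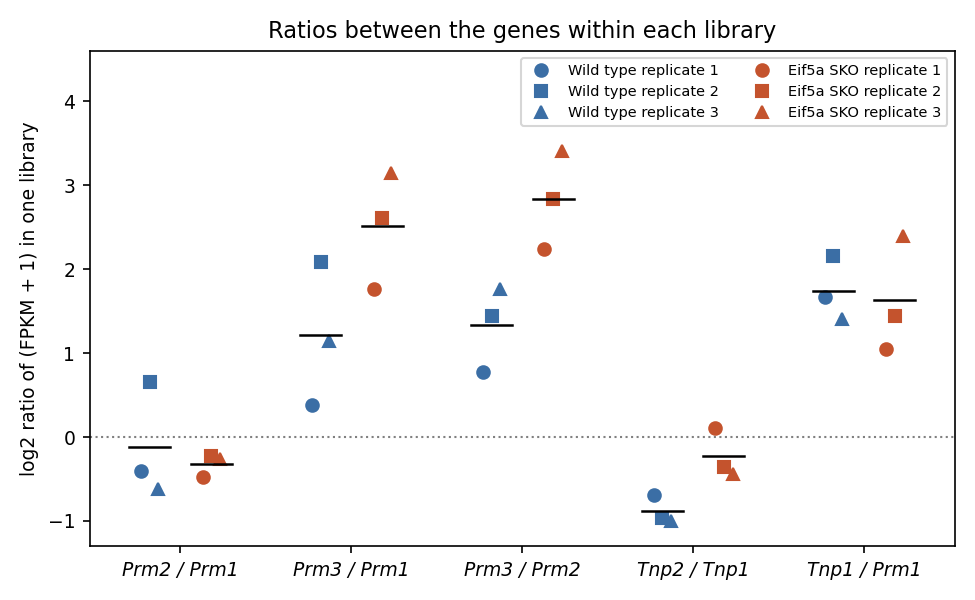
Log2 ratios of FPKM + 1 between 2 genes of the same library for 5 pairs, with group means as black lines. Groups do not overlap for Prm3 to Prm2 and for Tnp2 to Tnp1, and overlap for the 3 pairs that have Prm1 in the denominator.

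The nearest coding genes outside the cluster were hardly covered. Socs1, a suppressor of cytokine signalling, begins 2399 bases from Tnp2 and had 0.779 ± 0.0882 FPKM in the wild-type libraries against 0.736 ± 0.508 FPKM in the SKO libraries (SD, n = 3). Rmi2, a subunit of a complex that resolves DNA crossovers, lies 38236 bases beyond Prm1 and had 0.875 ± 0.357 and 0.657 ± 0.747 FPKM. Neither reached the mean of 1 FPKM needed for the test. Next to Tnp1, Tns1, a gene for a focal adhesion protein, had 10.6 ± 0.414 and 14.2 ± 2.94 FPKM (limma adjusted p = 0.725), and the neighbour on the other side, Igfbp5, was not analysed here.

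The genes most alike to each member were ranked by Pearson r of log2(FPKM + 1) over the 6 libraries, among 4837 other named coding genes that averaged 5 FPKM or more. This describes 6 points that share library scale and 2 genotypes. Prm3 was most like Cklf (r = 0.997), Ogg1 (r = 0.997) and Scml2 (r = 0.996), and 323 genes had an r over 0.95 with it. Far fewer followed the others so closely: 6 for Prm1, 6 for Prm2, 7 for Tnp1 and 4 for Tnp2. The same count was not made for other genes, so how many is usual is not known. Prm1 was most like Pfkfb2 (r = 0.993), Tatdn3 (r = 0.991) and Anapc4 (r = 0.966). Prm2 was most like Nktr (r = 0.976), Cfap69 (r = 0.970) and Chfr (r = 0.968). Tnp1 was most like Qsox1 (r = 0.992), Immp2l (r = 0.980) and Ccar1 (r = 0.977), and Tnp2 was most like Ipo13 (r = 0.963), Gripap1 (r = 0.962) and the histone variant gene H2al2a (r = 0.959). None of these lists held another of the 5 genes.

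Genes that act on protamines and transition proteins were followed in lists by role. These lists were chosen with earlier results of these data known, so counts over them are descriptions. Of 11 genes for regulators of their transcription, 11 were tested and 0 passed (limma, 1 at an unadjusted p under 0.05), with a median log2 fold change of 0.27 against 0.13 for all rows. Among all rows 0.128% passed and 11.0% were at that unadjusted p. The densest were Crem, the activator of many post-meiotic genes, at 151, 211 and 317 FPKM in the wild-type libraries against 141, 316 and 206 FPKM in the SKO libraries, and Gtf2a1l, a testis form of the general factor TFIIA. Gtf2a1l had 57.0, 81.7 and 129 FPKM against 50.5, 110 and 106 FPKM. The group means of both were within their SD of each other. Fhl5, the 1 gene of this list at an unadjusted p under 0.05, was named after its values were seen. It had 4.27, 5.79 and 6.34 FPKM against 10.1, 13.5 and 9.60 FPKM. Its groups did not overlap, as in 15.7% of all rows, and it did not pass (limma adjusted p = 0.375).

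Of 15 genes for storage and timed translation of the mRNAs, 15 were tested and 0 passed with the deposited values (limma, 2 at an unadjusted p under 0.05), with a median of 0.08. That unadjusted p was met by 11.0% of all rows. With TMM-type scaling 1 of the 15 rose, against 1.02% of all rows called. That gene was Ybx2, which encodes the germ cell Y-box protein that binds stored mRNAs, protamine mRNAs among them. It had 70.7, 90.6 and 144 FPKM in the wild-type libraries against 199, 373 and 325 FPKM in the SKO libraries, with no overlap (log2 fold change 1.56, limma adjusted p = 0.275; scaled 1.39, limma adjusted p = 0.0473). It also passed with quantile normalization (limma adjusted p = 0.0201) and with equal sums over protein-coding rows (0.0104), and in no other setting that kept all 6 libraries. The scaled call was lost whichever library was left out (limma adjusted p from 0.0821 to 0.200). Paip2, a gene for a repressor of poly(A)-binding protein named here after its values were seen, had 21.8, 24.5 and 37.6 FPKM against 48.9, 92.2 and 63.9 FPKM. It passed with quantile normalization (0.0243) and equal sums (0.0174) but not with TMM-type scaling (limma adjusted p = 0.0623). Fxr1, an RNA-binding protein gene linked to the activation of stored mRNAs in late spermatids, had 154 ± 41.2 and 130 ± 43.2 FPKM (limma adjusted p = 0.874). Tarbp2, another gene needed for timely protamine translation and named here after its values were seen, had 12.3 ± 4.28 and 12.2 ± 4.02 FPKM.

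Of 10 genes for modification, chaperoning and import of the proteins, 9 were tested and 0 passed (limma, 1 at an unadjusted p under 0.05), with a median of 0.41. That unadjusted p was met by 11.0% of all rows. Hspa4l, a heat shock protein gene, had 319, 349 and 538 FPKM in the wild-type libraries against 242, 384 and 260 FPKM in the SKO libraries (log2 fold change -0.43, limma adjusted p = 0.758). It fell in 1 alternative, quantile normalization (-0.86, limma adjusted p = 0.0292). With TMM-type scaling its groups did not overlap but it did not pass (-0.60, limma adjusted p = 0.247). Gpx4, whose nuclear form crosslinks protamine thiols, had 171 ± 55.5 and 228 ± 66.6 FPKM (limma adjusted p = 0.779). Camk4, a kinase for PRM2, had low density, at 3.20 ± 0.712 and 2.80 ± 1.14 FPKM, and was picked out after its values were seen. Txndc2, the 1 gene of this list at an unadjusted p under 0.05, was likewise picked out after its values were seen. It had 13.8, 12.6 and 19.9 FPKM in the wild-type libraries against 6.99, 8.68 and 5.23 FPKM in the SKO libraries. These groups did not overlap, as in 15.7% of all rows, and Txndc2 did not pass (limma adjusted p = 0.335).

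Of 21 genes for histone eviction and for linker or variant histones, 19 were tested and 0 passed with the deposited values (limma, 6 at an unadjusted p under 0.05), with a median of 0.20 and a range from -1.49 to 2.80. At that unadjusted p 11.0% of all rows passed. With TMM-type scaling 2 rose and 1 fell, so that 3 of 19 were called against 1.02% of all rows, and 6 of 19 were at an unadjusted p under 0.05 against 15.6%. As the list was chosen with earlier results of these data known, the counts are not a test of it. The 2 that rose were H2bc1, the testis H2B gene (limma adjusted p = 0.0775, scaled 0.0186), at 11.1, 13.7 and 24.7 FPKM in the wild-type libraries against 67.5, 138 and 161 FPKM in the SKO libraries, and H2ab1, a short H2A variant gene with close copies that can share reads. H2ab1 had 3.89, 4.83 and 7.76 FPKM against 17.5, 27.6 and 18.1 FPKM (scaled limma adjusted p = 0.0410). Parp2, a poly(ADP-ribose) polymerase gene, fell under scaling, from 12.4, 14.2 and 14.1 FPKM to 4.08, 4.82 and 3.73 FPKM (limma adjusted p = 0.157, scaled 0.0410). All 3 also passed with quantile normalization (limma adjusted p = 0.00853 for H2bc1, 0.0184 for H2ab1 and 0.0177 for Parp2) and with equal sums (0.0074, 0.0145 and 0.0252). At a mean of at least 5 FPKM, where 1.31% of rows were called, H2bc1 (0.0113) and H2ab1 (0.0306) passed, and with robust estimation, where 0.404% were, H2bc1 did (0.0252). With TMM-type scaling and any 1 library left out the 3 calls were lost, with limma adjusted p from 0.0592 to 0.104 for H2bc1, 0.0888 to 0.169 for H2ab1 and 0.0744 to 0.172 for Parp2. H2ab1 and Parp2 were picked out after their values were seen. Chd5, a remodeller of spermatid chromatin, had 46.3 ± 10.2 and 59.3 ± 36.0 FPKM (limma adjusted p = 0.930).

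The 5 genes were also set beside 10 other late spermatid genes whose mRNAs are known to be stored. Of these 10 all were tested and 0 passed (limma, 1 at an unadjusted p under 0.05), with a median of 0.15 against -0.33 for the 5 genes and 0.13 for all rows. That unadjusted p was met by 11.0% of all rows. Odf2, a gene of the outer dense fibres of the tail, had 131 ± 33.8 and 205 ± 64.4 FPKM (limma adjusted p = 0.630). Smcp, a gene of the mitochondrial capsule, had 9.13, 15.3 and 13.9 FPKM in the wild-type libraries against 28.2, 12.0 and 7.64 FPKM in the SKO libraries, so 1 SKO library lay above the rest and another below them. Oaz3, the 1 gene of this list at an unadjusted p under 0.05, had 5.94, 4.82 and 11.5 FPKM against 14.9, 21.2 and 24.6 FPKM. Its groups did not overlap, as in 15.7% of all rows, and it did not pass (limma adjusted p = 0.275). Prm1 and Prm2 ran from 4.38 to 19.9 FPKM over the 6 libraries. Odf1 (8.05 ± 3.66 and 10.9 ± 1.72 FPKM), Gapdhs (10.7 ± 3.57 and 11.6 ± 0.927 FPKM) and Akap3 (7.33 ± 2.01 and 9.12 ± 2.15 FPKM) lay within that range in every library. Oaz3, Odf1, Gapdhs and Akap3 were named after their values were seen.

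**Figure D4:**
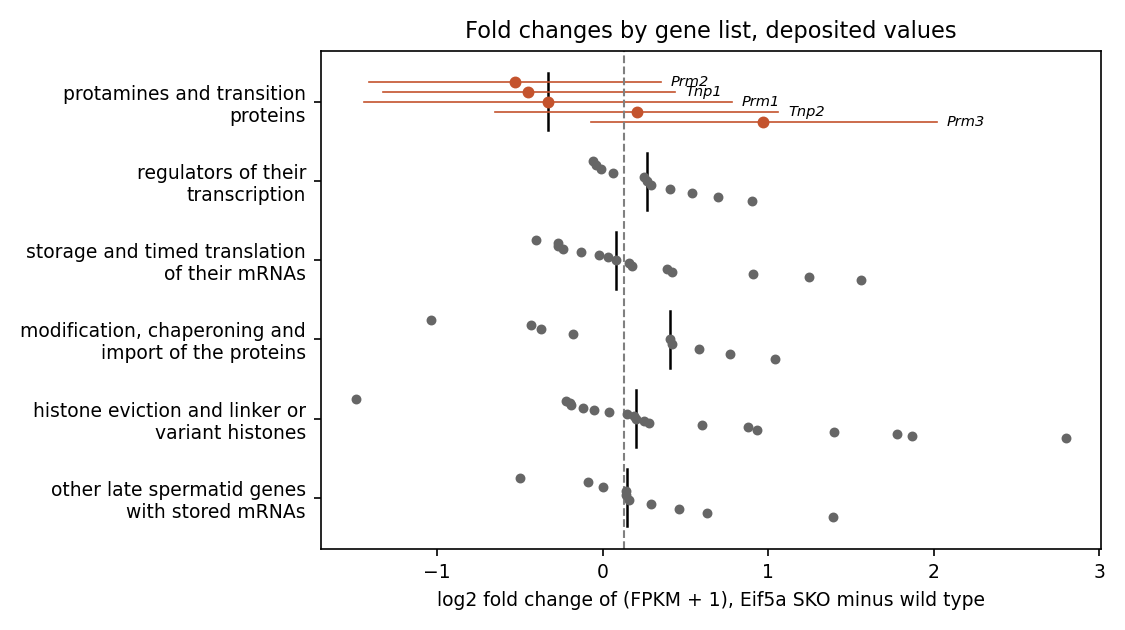
Log2 fold changes (horizontal axis, SKO minus wild type, deposited values) of the tested genes in each list, with list medians as black lines and the median of all rows, 0.13, as a dashed line. The 5 genes carry 95% intervals from limma's moderated SE, each of which includes 0.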

How the data were processed

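Ribosome footprints were sequenced by the authors from 3 wild-type and 3 Eif5a SKO samples. The deposited table gives FPKM (fragments scaled to transcript length and library size) for 22770 gene symbols, 1 value per library and no counts. Per the submitters' processing notes, cutadapt, Bowtie2, STAR, Cufflinks and the build mm10 were used, with no role or order given. The columns named cKO were matched to the SKO samples by replicate number.

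The 15578 rows that averaged 1 FPKM or more were fitted on log2(FPKM + 1) in R 4.3.3 by limma 3.58.1 (two-sided, with an eBayes mean-variance trend, Benjamini-Hochberg adjustment over all tested rows, threshold 0.05). Fold changes on this scale understate those of low rows. The spread behind each p-value is that between these samples, which may be technical. TMM-type scaling divided each library by its average ratio to one chosen library after extreme ratios and levels were trimmed (0.3 of ratios and 0.05 of levels trimmed at each end).

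The genes and lists were chosen with earlier results of these data known. Named genes are the 5 genes, Eif5a, in each list the 2 past the test with the smallest p or otherwise the 2 with the highest mean, the 3 genes most alike to each of the 5, and the nearest coding neighbours. Alternatives were other pseudocounts, filters and scalings, eBayes in robust form or with no trend, a block for replicate number, and each library left out. Promoter sequences and positions are RefSeq's for GRCm38. A planned description of the proteins' residues was not run.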

Additional observations from a re-analysis of the deposited data

How the results depend on the processing

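None of the 5 genes passed the test in any of 22 alternatives. Prm2 and Tnp1 stayed negative and Prm3 positive in all of them; adjusted p (limma) was 0.425 to 0.998 for Prm1, 0.272 to 0.937 for Prm2, 0.0781 to 0.760 for Prm3, 0.211 to 0.869 for Tnp1 and 0.689 to 0.991 for Tnp2. With 1 library left out, with or without TMM-type scaling, log2 fold changes were -0.91 to 0.02 for Prm1, -0.87 to -0.22 for Prm2, 0.59 to 1.28 for Prm3, -0.83 to -0.27 for Tnp1 and -0.21 to 0.36 for Tnp2. Tnp2 was -0.04 with quantile normalization and -0.02 with equal sums over protein-coding rows; the cause was not tested. Relative to all rows Prm1, Prm2 and Tnp1 were lower and Prm3 higher in all 22, and Tnp2 was higher in 16 and lower in 5. The log2 differences of ratios with 1 library left out were -0.45 to 0.19 for Prm2 to Prm1, -0.50 to 0.17 for Tnp1 to Prm1, 0.89 to 1.75 for Prm3 to Prm1, 1.21 to 1.80 for Prm3 to Prm2 and 0.49 to 0.76 for Tnp2 to Tnp1.

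The count of 20 called rows was 4 with a pseudocount of 5, 5 without a filter, 86 at a mean of at least 5 FPKM (fewer rows tested), 159 with TMM-type scaling, 446 with quantile normalization, 527 with equal sums, 63 with robust estimation and 4 to 31 with 1 library left out. The 159 rows under TMM-type scaling became 4 to 28 with 1 library left out. Whether shared replicate numbers pair samples across the groups is not stated. Deviations from the group means of same-numbered libraries correlated at 0.0926, 0.000158 and 0.0243. Those of differently numbered libraries ran from -0.107 to 0.0799. With so few libraries per group these values cannot decide whether samples were paired. With the replicate block 5 rows were called and no call among the 5 genes changed. Among the markers, equal sums also called Spaca1 and Izumo1 higher and Tex22 and Hba-a1 lower; Cyp17a1 and Insl3 were called higher with robust estimation or a mean of at least 5 FPKM, and Ctsl with that mean, quantile normalization or equal sums. Of the other named genes, Smcp was -0.01, -0.01 and -0.07 with TMM-type scaling, quantile normalization and equal sums, and Chd5 was -0.08 with quantile normalization and -0.05 with equal sums. With 1 library left out, Smcp ran from -0.65 to 0.53, Chd5 from -0.31 to 0.65, Crem from -0.38 to 0.24, Gtf2a1l from -0.35 to 0.35 and Fxr1 from -0.53 to 0.01. Read numbers behind each value are unknown, so counting error could not be set apart from the spread between libraries.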
